A study of Mus musculus with 4 samples.

Results

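A set of 10 genes that mark hematopoietic stem cells or supply their niche were followed in the livers of fetuses from dams on a control diet (CD) or a high-fat diet (HFD). They were the ligands Kitl, Cxcl12 and Thpo, the receptors Kit, Cxcr4 and Flt3, the surface genes Cd34 and Procr, and the transcription factors Mecom and Hlf. Every non-control probe whose transcript belongs to 1 of these 10 genes was taken, which gave 17 of 56605 probes, for 10 of the 22911 genes named on the array. The 4 arrays carried liver RNA of C57BL/6J fetuses at mid-gestation. In 2 of them the dam had received the CD, with 4.3% of energy as fat, and in 2 the HFD, with 60% of energy as fat, in both cases during pregnancy. How many fetuses and dams stood behind an array is not given in the sources used here, so that the spread between arrays may be partly technical.

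In the mouse, the fetal liver is where hematopoietic stem cells arrive at mid-gestation, expand and give rise to blood before the bone marrow takes over. The cells are held and fed by their neighbours. Kit ligand (Kitl) acts on the receptor Kit, thrombopoietin (Thpo) sustains stem cells, and the chemokine Cxcl12 guides cells that carry Cxcr4. In fetal liver, hepatoblasts make Thpo, and hepatoblasts, endothelium and perivascular stroma are sources of Kitl and Cxcl12.

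On these arrays, none of the 16 probes tested passed the cutoffs for a difference between the diets. Differences between HFD and CD, all on the log2 scale, ran from -0.30 for Kit to 0.43 for 1 probe of Kitl. Of the 16 probes, 0 passed an unadjusted limma p under 0.05 with a change of at least 2-fold, and 0 passed on p alone. The count on p alone rose to 4 without CD 1 (Kit, the first Thpo probe, the second Kitl probe and Mecom, which was at background), to 2 without CD 2 (the dimmer Cd34 probe and Mecom) and to 1 with quantile normalization (the second Kitl probe). Of all 41332 probes tested, 0.769% passed both cutoffs (0.293% higher and 0.477% lower under the HFD) and 3.35% passed on p alone (1.58% higher and 1.76% lower), so that a count of 0 among 16 is near the background. After Benjamini-Hochberg adjustment over all probes, limma called 0 probes of any gene (smallest adjusted p = 1.00), and the methods' t-test also called 0 (smallest adjusted p = 0.937). With normexp background correction 1 probe passed the adjusted cutoff, and without HFD 1 there were 6, of which 0 belonged to the members. With 2 arrays a group, the smallest p that an exact two-sided permutation test allows is 0.333, and limma borrows the spread over all probes.

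Before the members are described, 2 facts of the arrays bear on them. The CD arrays differed more from each other than the HFD arrays did. Over the tested probes, the log2 difference between the arrays of a group had an SD of 0.58 under the CD and 0.34 under the HFD. In addition, CD 2 was the dimmest array, with a median intensity of 70.2 against 97.0 to 120.5 on the others. The replicate numbers also divided the arrays by sex-linked transcripts. The Y-linked Eif2s3y had intensities of 2933 and 3479 on CD 1 and HFD 1, and of 6.60 and 11.4 on CD 2 and HFD 2. Xist, which is made from the inactive X chromosome, had 3.43 and 8.48 on CD 1 and HFD 1, and 448 and 543 on CD 2 and HFD 2. The sample labels give female for all 4 arrays, and whether they refer to the dam or the fetus is not stated. Read as the sex of the fetus, the label is at odds with the Y-linked transcripts on CD 1 and HFD 1. Both diets held 1 array of each kind, so that the gap between the arrays of a group is also one between the kinds. Differences within each replicate number are therefore given beside the pooled ones.

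A level, here and below, is the log2 intensity of a probe minus the 75th percentile of its array, so that 0 is a bright probe and each unit is a doubling. Levels of different probes are not compared as amounts of RNA, since probes bind with unlike strength. The sums, shares and rankings by signal given below are therefore weighted by how strongly each probe binds. Of the 17 probes, 16 were above the 20th percentile on every array and entered the test, and 15 of these 16 were well above background on all 4 arrays, against 84.5% of all tested probes. The exception was the tested probe of Mecom.

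**Figure D1:**
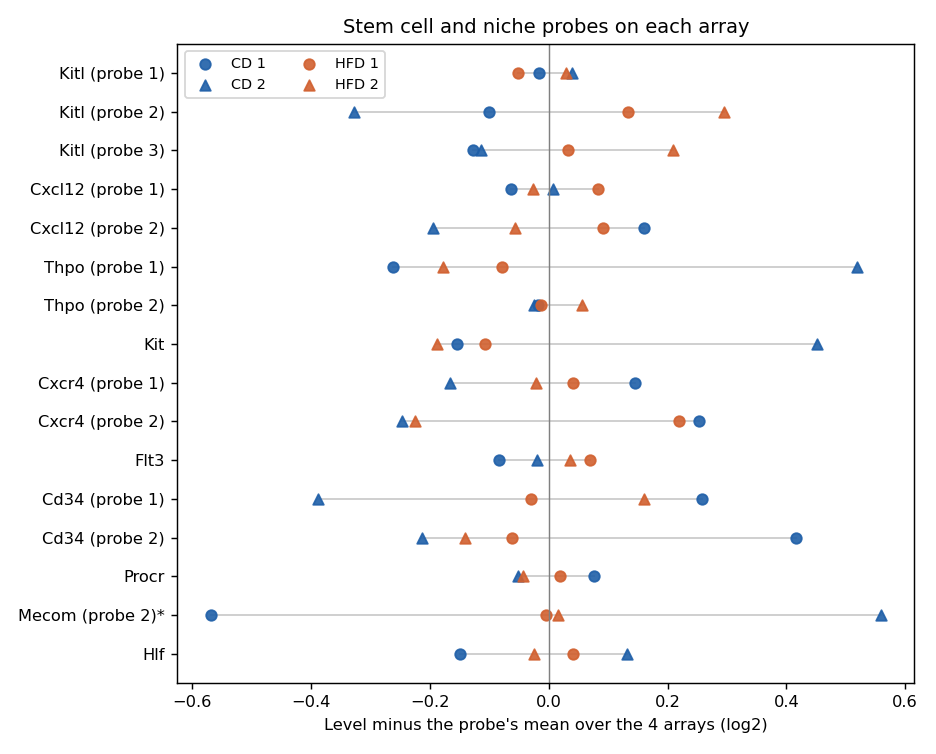
Level of each of the 16 tested probes on each array, as the log2 level minus the probe's own mean over the 4 arrays. Blue marks CD, orange HFD, circles replicate 1 and triangles replicate 2; an asterisk marks the Mecom probe that was not well above background on any array. CD 2 lies apart at the top for Kit and the first Thpo probe and at the bottom for the first Cd34 probe, while the HFD arrays lie close together for most probes.

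Among the ligands, Kitl was measured by 3 probes of 1 transcript, and they did not agree. Kitl encodes stem cell factor, a membrane-bound or shed protein needed by stem cells, mast cells, germ cells and melanocytes. Its brightest probe (A_51_P133936) had levels of 0.30 and 0.36 under the CD and 0.27 and 0.35 under the HFD. The groups overlapped, and the difference was -0.02 (standard error 0.16). The second probe (A_55_P2730751) had levels of -3.04 and -3.26 under the CD and -2.80 and -2.64 under the HFD. The third (A_55_P2745567) had -3.29 and -3.28 against -3.13 and -2.96. On both of these dimmer probes the HFD arrays lay above the CD arrays, with differences of 0.43 (standard error 0.18, limma adjusted p = 1.00) and 0.24 (standard error 0.17, limma adjusted p = 1.00). Such an order, HFD above CD with no overlap, was found for 19.5% of all tested probes. Averaged over its 3 probes, Kitl had a difference of 0.22. The 250 bases before the Kitl start, which its 3 probes share, are shown with no link drawn to their unlike answers. They lie at chr10:100015571-100015820 on the plus strand of GRCm38.p6, and the capitals mark 3 matches to the GC box (GGGCGG, or CCGCCC where it lies on the other strand), of which 2 overlap, and a TATA motif (TATAAA).
Kitl: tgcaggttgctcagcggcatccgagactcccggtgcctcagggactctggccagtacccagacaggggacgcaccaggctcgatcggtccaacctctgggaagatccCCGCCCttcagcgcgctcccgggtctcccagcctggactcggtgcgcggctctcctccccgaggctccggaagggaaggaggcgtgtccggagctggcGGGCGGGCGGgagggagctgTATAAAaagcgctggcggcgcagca

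Cxcl12, the chemokine that retains stem cells, passed no cutoff on either of its probes, which belong to different transcripts of the gene. The brighter one (A_51_P172502) had levels of 4.18 and 4.25 under the CD and 4.33 and 4.22 under the HFD, a difference of 0.06 (95% interval -0.38 to 0.49). The other (A_55_P1966204) had 2.26 and 1.91 against 2.19 and 2.05, a difference of 0.04 (95% interval -0.50 to 0.57). On both probes the groups overlapped. The brighter probe spanned 0.07 between the CD arrays and the other 0.36, where CD 2 was the lowest of the 4 arrays.

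Thpo, a factor for both stem cells and megakaryocytes, gave a wide spread on 1 probe and almost none on the other. The brighter probe (A_52_P431164) had levels of -0.04 and 0.74 under the CD and 0.14 and 0.04 under the HFD. CD 2 stood above the other 3 arrays, and the gap between the CD arrays was 0.78 against 0.10 between the HFD arrays. The difference between the diets was -0.26 (95% interval -1.07 to 0.55). The second probe (A_51_P385086), listed for the same transcript, had levels of -1.07 and -1.08 under the CD and -1.06 and -0.995 under the HFD. Its HFD arrays lay above its CD arrays, by 0.04 (95% interval -0.38 to 0.47), and it did not show the high value on CD 2. The high value of the first probe on CD 2 was therefore not shared by the transcript's other probe.

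Among the receptors, Kit had the widest difference of the 3. Kit encodes the receptor tyrosine kinase for Kitl and marks stem cells, early progenitors, young erythroid cells and mast cells. It has 1 probe (A_66_P128434), with levels of 2.00 and 2.61 under the CD and 2.05 and 1.97 under the HFD. CD 1 lay between the HFD arrays, and CD 2 above all 3. The difference was -0.30 (standard error 0.26, 95% interval -0.98 to 0.39, limma adjusted p = 1.00), smaller than the gap of 0.61 between the CD arrays. Without CD 2 it was 0.01, and without CD 1 it was -0.60, which passed the cutoff on unadjusted p but not that of 2-fold. Before scaling, the Kit intensities on the CD arrays were 4303 and 4300.0, and on the HFD arrays 4021 and 3564. The gap between the CD arrays is thus present after scaling and not before it. Unscaled intensities also carry the brightness of each array, and CD 2 was the dimmest. For the brighter Cd34 probe the CD intensities were 16794 and 7041, a gap present before scaling too. For the brighter Cxcl12 probe they were 19421 and 13395, while its levels were close. In the authors' table of normalized signal, CD 1 was divided by 1068 and CD 2 by 702. The 250 bases before the first Kit start are shown because Kit had the lowest difference among the tested member probes. They lie at chr5:75574737-75574986 on the plus strand of GRCm38.p6, and the capitals mark an ETS motif (AGGAAG) and a GC box.
Kit: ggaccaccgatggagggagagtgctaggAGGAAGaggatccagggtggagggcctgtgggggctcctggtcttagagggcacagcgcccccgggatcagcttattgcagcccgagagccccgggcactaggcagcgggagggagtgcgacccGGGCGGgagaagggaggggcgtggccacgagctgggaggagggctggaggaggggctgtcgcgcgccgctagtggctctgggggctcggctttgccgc

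Cxcr4, the receptor of Cxcl12, had levels of -1.84 and -2.15 under the CD and -1.94 and -2.00 under the HFD with its brighter probe (A_52_P585124). The HFD arrays lay between the CD arrays, and the difference was 0.02 (95% interval -0.48 to 0.52). The dimmer probe (A_55_P2745744) had -4.79 and -5.29 against -4.83 and -5.27, a difference of -0.01 (95% interval -0.73 to 0.72). On this probe both arrays numbered 1 lay above both numbered 2, by 0.50 under the CD and 0.44 under the HFD. The order was not tested. Its intensities were low, 38.7 and 18.0 under the CD and 34.1 and 23.5 under the HFD. The lowest intensities well above background were 14.9 to 17.5 on the arrays.

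Flt3, a receptor of multipotent and lymphoid progenitors, had a narrow range on its probe (A_66_P116412). Its levels were -2.35 and -2.29 under the CD and -2.20 and -2.23 under the HFD. Both HFD arrays lay above both CD arrays, by 0.10 (standard error 0.16, 95% interval -0.32 to 0.53, limma adjusted p = 1.00). Kitl (the 2 dimmer probes), the second Thpo probe and Flt3 made up the 4 of 16 probes whose groups did not overlap. All 4 were higher under the HFD and 0 were lower, where 19.5% and 11.1% of all tested probes were so.

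Of the surface genes, Cd34 varied widely between the CD arrays. Cd34 encodes a sialomucin of stem and progenitor cells that is also found on endothelium and on some mesenchymal cells. Its brighter probe (A_51_P204740) had levels of 3.97 and 3.32 under the CD and 3.68 and 3.87 under the HFD. The HFD arrays lay within the range of the CD arrays, whose gap of 0.65 exceeded the difference of 0.13 (95% interval -0.60 to 0.86). The dimmer probe (A_55_P2009225) had -3.04 and -3.67 against -3.52 and -3.59, a difference of -0.20 (95% interval -0.90 to 0.50). Both probes were higher on CD 1 than on CD 2, by 0.65 and 0.63, but they differed in the sign of the diet difference. Their mean gave -0.04. The CD arrays parted in the opposite order to those of Kit. A link between sequence and levels was not tested, and the 250 bases before the Cd34 start are shown only for comparison with Kit. They lie at chr1:194938571-194938820 on the plus strand of GRCm38.p6, with an ETS motif in capitals.
Cd34: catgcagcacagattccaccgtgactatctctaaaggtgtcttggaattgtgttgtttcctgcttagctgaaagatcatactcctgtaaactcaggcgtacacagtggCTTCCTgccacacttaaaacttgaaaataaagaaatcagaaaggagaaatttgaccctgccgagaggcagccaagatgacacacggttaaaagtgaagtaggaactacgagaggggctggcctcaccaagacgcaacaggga

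Procr, which encodes the endothelial protein C receptor and marks long-term stem cells as well as endothelium and trophoblast, was steady. Its levels were 0.35 and 0.22 under the CD and 0.29 and 0.23 under the HFD. The HFD arrays lay between the CD arrays, and the difference was -0.02 (95% interval -0.46 to 0.41).

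The transcription factors gave 1 measured gene and 1 that was too dim. Hlf, a bZIP factor of stem cells that hepatocytes also use, had levels of -0.86 and -0.58 under the CD and -0.67 and -0.74 under the HFD. The HFD arrays lay between the CD arrays, and the difference was 0.02 (95% interval -0.47 to 0.51). Mecom, whose product Evi1 is needed by stem cells, had 1 probe (A_51_P482148) that was not well above background on any array, with intensities of 6.09 and 8.74 under the CD and 8.14 and 7.74 under the HFD. Its other probe (A_55_P2111172) was well above background on CD 1 alone, where its intensity was 16.8, against 3.19 on CD 2 and 10.5 and 17.1 on the HFD arrays, and was left out of the test by the percentile. Being at background in both groups, Mecom is given no fold.

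The intervals of the difference show how large a change the arrays leave room for. For 14 of the 16 probes the 95% interval lay within a 2-fold change in either direction, as it did for 74% of all tested probes. The exceptions were the first Thpo probe, which reached past 2-fold on the side of a fall, and the Mecom probe at background. For Cxcl12, on the brighter probe, the interval ran from 0.770-fold to 1.40-fold, and for Kit from 0.508-fold to 1.31-fold. A p above the cutoff does not show that the diets gave equal levels. Changes within these bounds stay compatible with the values from 2 arrays a group, and no smallest detectable change was computed.

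**Figure D2:**
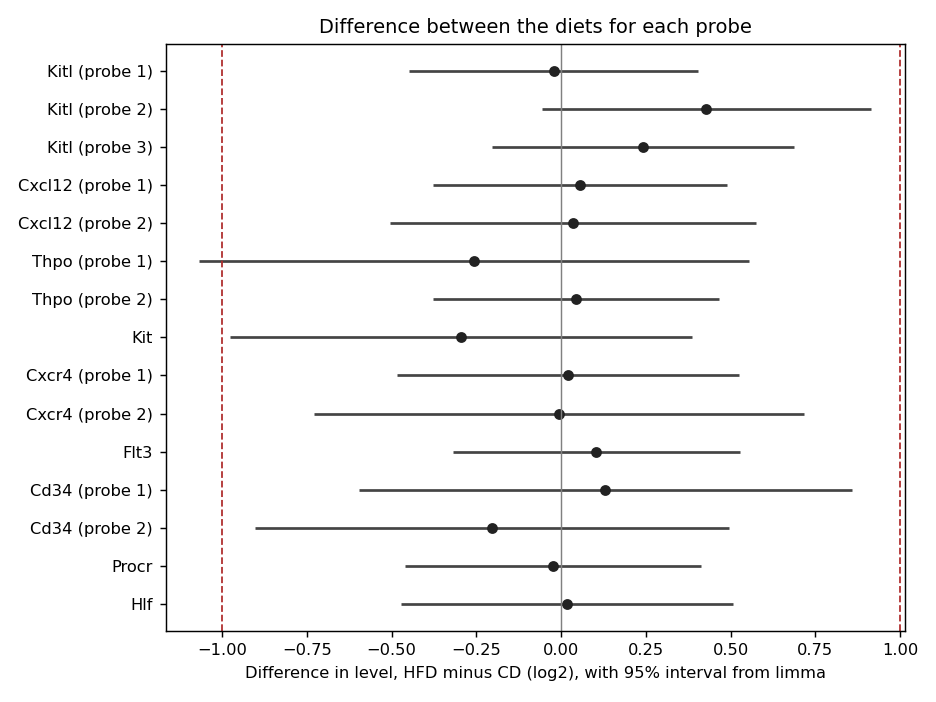
Difference in level between HFD and CD for the 15 tested probes well above background (log2, points) with its 95% interval from limma (lines); dashed lines stand at a 2-fold change. All 15 intervals include 0, and that of the first Thpo probe extends past a dashed line.

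Over the 10 genes, with the brightest tested probe of each, the median difference was 0.01 (0.02 without Mecom), beside 0.04 for the 18205 genes with a symbol. The median gap between the CD arrays was 0.30 and that between the HFD arrays 0.07, beside 0.32 and 0.10 for all genes. The CD gap was the larger one for 12 of the 16 probes, near the 75.6% of all tested probes. The array farthest from the other 3 was CD 1 for 6 probes, CD 2 for 6 (40.9% of all tested probes), HFD 1 for 2 and HFD 2 for 2. The wide spread of the CD group was thus found over all tested probes as well as in these genes.

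Within a replicate number the diet differences often pointed opposite ways. For 11 of the 16 probes the sign differed between the arrays numbered 1 and those numbered 2, near the 59.1% of all tested probes. For Kit the difference was 0.05 within number 1 and -0.64 within number 2. For the first Thpo probe the values were 0.18 and -0.70, and for the brighter Cd34 probe they were -0.29 and 0.55. Kit and this Thpo probe thus shared a pattern over the arrays, and the brighter Cd34 probe ran against it, while the second Thpo probe gave 0.01 and 0.08. The second Kitl probe was higher under the HFD within both numbers, by 0.23 and 0.62, and the third by 0.16 and 0.32, while the brightest gave -0.03 and -0.01. With 1 array of each diet within a number, these values have no replicate check, and the difference between the numbers was not tested.

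**Figure D3:**
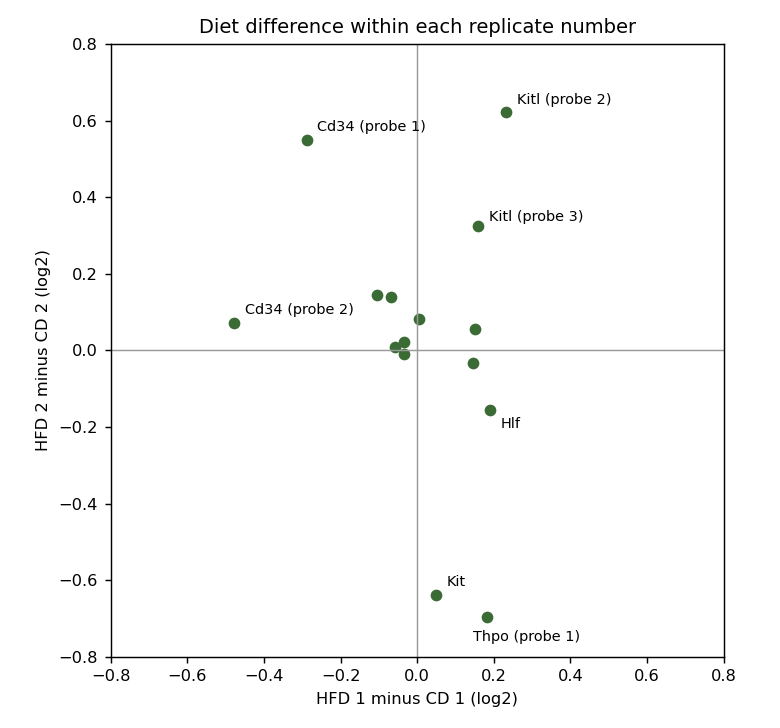
Difference between the diets within replicate number 1 (horizontal, HFD 1 minus CD 1, log2) and within replicate number 2 (vertical, HFD 2 minus CD 2, log2) for the 15 tested probes well above background on all 4 arrays. Kit and the first Thpo probe lie at 0.05 and 0.18 on the horizontal axis and at -0.64 and -0.70 on the vertical, Cd34 lies on the other side, and the dimmer Kitl probes are positive on both axes.

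The genes that work beside the members were followed through 5 lists of 111 genes, of which 110 had a probe and were tested, with 178 probes. They held 24 other ligands and receptors of these axes, 20 signal transducers below these receptors, 18 surface genes, 31 transcription factors and 18 niche adhesion and matrix genes. Of the 178 probes, 0 passed both cutoffs in either direction, against 0.769% of all tested probes. On p alone 1 probe was higher and 2 were lower, or 1.69% against 3.35%. The medians of the lists lay between -0.02 and 0.14, beside 0.04 for all genes.

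The 3 probes that passed on p alone were singled out after their values were seen. They belonged to Dpp4 (0.83), a protease that cleaves Cxcl12, to Pik3cd (-0.85), a lipid kinase subunit of blood cells, and to Gfi1 (-0.94), a repressor of stem and myeloid cells. All were dim, being well above background on 1, 2 and 1 of the 4 arrays, and each had an adjusted limma p of 1.00. The other probe of Dpp4 had a difference of 0.17 and that of Gfi1 -0.06, and the highest of the 4 Pik3cd probes was at -0.15.

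By the highest signal in each list, the ligands and receptors were led by Igf2, a growth factor of the fetal liver (-0.09), and Csf3r, the receptor for granulocyte colony-stimulating factor (0.05). The transducers were led by Ptpn11 (0.17), a phosphatase that carries Kit signals. Among surface genes the integrins Itgb1 (0.09) and Itga4 (0.15) led, and among transcription factors Lyl1 (0.14) and Tal1 (0.17), which are related bHLH factors of blood. The niche genes were led by Dlk1, a hepatoblast surface protein (0.00), and Sparc, a matrix protein of mesenchyme (0.23). None of the probes named here passed either cutoff.

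The scaled levels of markers of the cells that a fetal liver holds also differed between the CD arrays. For each of 14 lists, the linear levels of the brightest probe of each gene were summed. These probes did not have to pass the filters of the test. The shares of all tested probes set beside the marker counts below come from probes that did, so the sets are unlike. Hepatoblast markers, Alb among them, were higher on CD 2 than on CD 1 for 10 of 10 genes, with sums of 1757 on CD 1, 2747 on CD 2 and 2136 and 2178 on the HFD arrays. Megakaryocyte markers were higher on CD 2 for 8 of 8, with sums of 77.6 on CD 1, 140.5 on CD 2 and 124 and 120.0 on the HFD arrays. Erythroid markers were higher on CD 2 for 11 of 12, macrophage markers for 9 of 10 and granulocyte markers for 8 of 8. All these lists had CD 1 as their lowest array. These are levels after scaling, which raised CD 2 relative to CD 1, as seen for Kit. Before scaling, Alb had intensities of 303378 on CD 1 and 376933 on CD 2. Afp had 341843 and 319208, and Hnf4a 16134 and 11314, the other way. Serpina1a, the brightest of the list, had 338965 and 343517. The counts thus depend on the scaling, and the share of all probes higher on CD 2 was not counted.

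Stellate and mesenchymal markers, such as Col1a1 and Des, ran the other way. They were higher on CD 1 for 10 of 12 genes, with sums of 499 on CD 1, 256 on CD 2 and 359 and 391 on the HFD arrays. Cd34 was highest on CD 1, as were the sums of this list and of the neuronal list. Kit and the first Thpo probe were highest on CD 2. So were the hepatoblast, megakaryocyte, granulocyte, macrophage, early B lymphoid, trophoblast, gonad and adrenal, and melanoblast sums. Without the leading gene of each list, the early B, gonad and adrenal, and melanoblast sums were lowest on CD 2, and the others stayed highest there. Dct held 72.1% of the melanoblast sum on CD 2. Without Dct the sums were 0.716 and 0.646 under the CD and 0.720 and 0.677 under the HFD. Without Cd79b the early B sums were 1.43 and 1.24 against 1.26 and 1.25. The erythroid sum was highest on HFD 2 (2278, against 2259 on CD 2), and so was the mast cell and basophil sum (6.14 against 4.39). The sums of endothelial markers were nearly level, between 29.5 and 31.3. Yet 4 of the 10 genes were lower on both HFD arrays (11.1% of all tested probes) and 1 was higher (19.5%). The early B lymphoid sums lay between 2.38 and 2.62, with 40.3% to 52.7% from Cd79b. A level sum thus does not show that each gene was level. In whole liver, fewer cells of a type and less RNA per cell cannot be told apart, and the part of these lists in the values of the members was not tested.

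Markers of further cell types were summed in the same way. Mast cell and basophil markers summed to 6.01 and 4.39 under the CD and 4.06 and 6.14 under the HFD, and melanoblast markers to 1.35 and 2.32 against 1.46 and 1.81, with Tyrp1 not well above background on any array. Neuronal markers summed to 33.0 and 22.5 under the CD and 16.6 and 23.7 under the HFD. Of these 10 genes, 5 were lower on both HFD arrays, where 11.1% of all tested probes were so, and 0 were higher.

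Trophoblast markers, of which 13 of 14 had a probe, were mostly lower under the HFD. This list was chosen with earlier results of these data known. Tpbpa, Tpbpb, Prl8a9, Psg16 and Psg21 are among the genes that the authors list as most lowered on these arrays. The count below is therefore a description and no independent support. Of the 13 genes, 10 had both HFD arrays below both CD arrays, where 11.1% of all tested probes were so, and 0 were higher. Tpbpa, a marker of spongiotrophoblast, had levels of 3.01 and 4.80 under the CD and 1.00 and -1.01 under the HFD, and the placental prolactin family gene Prl8a9 had 0.45 and 2.28 against -1.80 and -4.32. The sum of the list was carried by Gcm1, which held 26.9% to 97.2% of it and was lowest on CD 2. Without Gcm1 the sums were 15.2 and 52.8 under the CD and 3.82 and 1.38 under the HFD. The levels of Procr, which trophoblast also carries, overlapped between the diets.

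Gonad and adrenal markers were led by Foxl2, with 52.3% to 79.0% of the sum, and without it summed to 15.8 and 11.05 under the CD and 19.4 and 23.6 under the HFD. Of these 10 genes, 6 were higher on both HFD arrays, where 19.5% of all tested probes were so. Among them was Cyp11a1, the enzyme that begins steroid synthesis, at -1.56 and -2.78 under the CD and -0.72 and 0.13 under the HFD. The authors list Cyp11a1, and the germ cell genes Dazl and Mael, among the genes most raised on these same arrays. The counts for these lists are therefore no independent support. Of the 8 germ cell markers, 4 were higher on both HFD arrays (19.5% of all tested probes), namely Ddx4, Dazl, Mael and Sycp3. Of these, only Ddx4 was well above background on all 4 arrays. Dazl, Mael and Sycp3 were so on 1, 2 and 1 arrays. Vsig4 of the macrophage list, Rag1 of the early B list and Syna of the trophoblast list were at background on all 4 arrays. The part of these cells in the members' values was not tested.

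**Figure D4:**
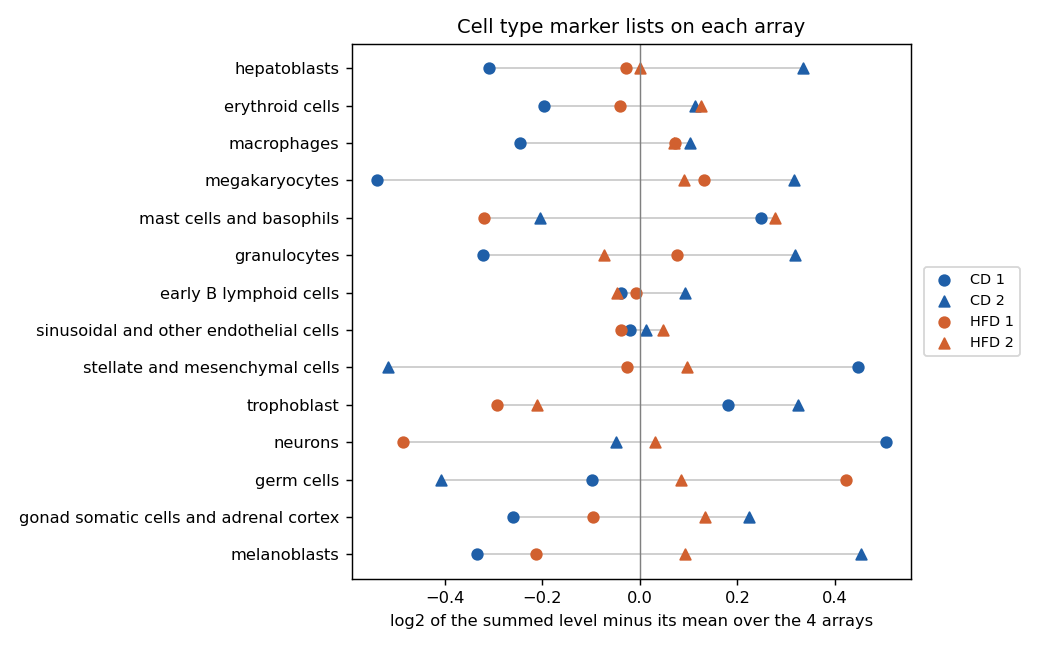
Summed linear level of 14 lists of cell type markers on each array, as the log2 of the sum minus its mean over the 4 arrays; symbols as in the plot of members by array. CD 1 and CD 2 lie at opposite ends for the hepatoblast, megakaryocyte, granulocyte and mesenchymal lists, and the HFD arrays lie between them. The trophoblast sum is carried by Gcm1 and does not show the wider gap of the other genes of its list.

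The promoters of the members shared few of the motifs searched. RefSeq lists 13 starts for the 10 genes on GRCm38.p6, and the 250 bases before each were read on both strands, overlapping matches counted. A GC box stood before 8 of the 13 starts, of 7 genes, where 32.7% of all 32851 promoters hold one. An ETS motif stood before 3 of the 13 starts, those of Kit and Cd34, and before 29.5% of all promoters. The GATA motif (AGATAA or TGATAA) was found before 1 start, of Mecom, and before 16.6% of all promoters, the TATA motif before 2 starts, of Kitl and Cxcr4, and before 12.4%, and the RUNX motif (TGTGGT) before 0 of the 13 starts and 14% of all promoters. The members' windows were rich in CG dinucleotides, with a median of 14 against 6 in all promoters, from 5 before 1 of the Thpo starts to 26 before Hlf. A match is a run of letters and does not show binding.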

How the data were processed

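Total RNA of fetal liver was hybridised by the authors as Cy3-labeled cRNA to a 1-colour mouse array, and the image was read with Agilent Feature Extraction 11.0.1.1. The deposited intensity of each spot was background-subtracted and spatially detrended, with no scaling between arrays. The deposited flags for outliers and for signal well above background are scores of 0 or 1. The authors' table of normalized signal holds 41471 probes. Each of its columns equals the intensity divided by 1 constant, within 0.1% for 100% of 41163 probes.

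Probes were named by matching their transcripts, without version, to the RefSeq genes of GRCm38.p6, which named 32994 of 56605 probes. Spots with outlier flags were left out, the spots of a probe were averaged on the log2 scale, and the 75th percentile of each array was subtracted. A probe was dropped when 1 array put it below the 20th percentile or when both groups had a CV over 50%. These filters follow the study's methods except that the CV was taken on the linear scale, where the methods name the log scale, and that outlier spots were left out in place of its filter on flags. HFD was compared with CD by limma 3.58.1 in R 4.3.3 over 41332 probes on all 4 arrays, with no covariate. A probe passed at an unadjusted p under 0.05 with a change of at least 2-fold, and Benjamini-Hochberg adjusted p were taken over all probes. The steps were tested on simulated data. All 4 arrays had 0 saturated spots, and array number limits the precision.

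The members and the lists were chosen with earlier results of these data known. All members are named, with every probe. Of the other lists, the 2 genes of highest signal and any gene past both cutoffs are named, except 1 that is not reported here. Other settings tried were quantile normalization, normexp on the median brightness (the planned mean is not in the files used here), the deposited table, other filters, 1 probe per gene, the mean over probes, the t-test of the methods, the same with Welch's correction, a replicate block and leaving out each array. The differences within a replicate number were added after the data were seen.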

Additional observations from a re-analysis of the deposited data

How the results depend on the processing

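Under each alternative with a test, 0 member probes passed both cutoffs, and the median difference of the member genes lay between -0.03 and 0.05. Mecom, at background, is left out of the single genes. Of 135 differences of the other member genes under 15 alternatives, 15 changed sign, 11 of these when an array was left out and 5 without CD replicate 2. The share is no measure of stability, since many of the 135 signs could not change. Settings that altered only the filters, the choice of probes tested or the test, and the replicate block, left each of these differences at its main value. The deposited table hardly moved them (Kit -0.2968 against -0.2955). All sign changes came from quantile normalization, normexp, averaging of probes or leaving out an array. With quantile normalization Cxcl12 became -0.0503. With normexp Cxcr4 became -0.0105. Averaging the probes of a gene made Kitl 0.22 and Cd34 -0.0365.

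Leaving out 1 array at a time, the difference ranged from -0.0622 to 0.0183 for Kitl, 0.00 to 0.11 for Cxcl12, -0.65 to 0.13 for Thpo, -0.60 to 0.00746 for Kit, -0.14 to 0.18 for Cxcr4, 0.07 to 0.14 for Flt3, -0.19 to 0.45 for Cd34, -0.0892 to 0.0395 for Procr and -0.12 to 0.16 for Hlf. The median ranged from -0.01 to 0.05. A group with 1 array left is assumed to vary like the other group. For the other stem cell and niche genes the probes past both cutoffs ranged from 0 to 5, with 5 without CD replicate 1, 2 without CD replicate 2 and 4 without HFD replicate 1. On p alone these probes numbered 3, and 41 without CD replicate 1 and 33 without CD replicate 2. Over all probes tested, 318 passed both cutoffs, and 1226 without CD replicate 1, 721 without CD replicate 2, 871 without HFD replicate 1, 654 without HFD replicate 2, 845 with no filter on the 20th percentile, 213 with the filter on signal well above background, 135 with 1 probe per gene symbol, 97 by the methods' t-test, 46 with Welch's correction and 33 with normexp.

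With the replicate block, 0 member probes and 0 probes of the other lists passed both cutoffs (435 of all probes). The median stayed at 0.01, since the block left each difference unchanged. Same-numbered arrays shared the state of their sex-linked transcripts, while over all probes their deviations correlated at -0.10, and no pairing was taken from the numbers.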
